A study of Mus musculus with 20 samples.

Results

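The genes described here are 41 mouse genes that interferons switch on, the guanylate-binding proteins left aside, followed across islets and islet grafts of non-pregnant and pregnant mice. Each was read from the 1 probe set that carries its symbol alone, and where there was a choice, as for Irf1, from the one whose mean across the 20 arrays was highest. This gave values for 35 of the 41 genes, out of 19938 genes that the arrays measured in this way. Isg15, Ifi47, Irgm2, Igtp and Tgtp1 lay only on probe sets shared with other symbols, and Ifi44 was not in the array annotation used here, so none of these 6 is described by a value. Near-identical copies such as Ifit3 and Ifit3b can share probes, so a value may hold signal of a close relative.

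All mice were adult C57bl6/J animals. Non-transplanted islets were isolated from the pancreas of females that were non-pregnant (NP, n = 4) or 12.5 days pregnant (P12.5, n = 4). Islet grafts came from under the kidney capsule of female hosts, with islets of female or of male donors, and hosts were NP or P12.5 (3 arrays in each of the 4 groups). The graft hosts had been made diabetic with streptozotocin, and only hosts whose blood glucose recovered were mated. The study describes no such treatment for the non-transplanted mice, and the labels mark their arrays as data analysed before. Array set, streptozotocin, graft site and adhering kidney tissue therefore cannot be told apart from transplantation. Levels are the deposited log2 values, given to 1 decimal, so a difference of 1 is a 2-fold change. The labels speak of biological replicates without naming animals, so the tests speak only of how far these samples vary.

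Interferons are secreted proteins that warn cells of viruses and other microbes. Type I interferons (interferon alpha and beta) bind the receptor of Ifnar1 and Ifnar2, and interferon gamma, made mainly by T and NK cells, binds the receptor of Ifngr1 and Ifngr2. Receptor-bound kinases then activate STAT proteins, which enter the nucleus and switch on a shared set of antiviral genes. In islets these genes are best known from virus infection, autoimmune diabetes and graft rejection, and both beta cells and immune cells can express them.

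The DNA letters through which this signal acts are short. A complex that holds STAT2 and IRF9 binds the interferon-stimulated response element (ISRE), searched here on either strand as its core, GAAA and GAAA with 2 bases of any kind between them. The gamma-activated site (GAS), the element of the response to interferon gamma, was searched as TTCNNNGAA, where N is any base, which reads the same on both strands. The study writes the consensus site of STAT5 with the same letters, so a match is not particular to interferon gamma. RefSeq promoters of build GRCm38.p6, from 250 bases before to 50 bases after the start of the gene, were at hand for 30 of the 41 genes. Mx1, Mx2, Oas2, Usp18, Zbp1, Dhx58, Iigp1, Rtp4, Ifi27l2a, Parp9 and Parp14 were not matched. The ISRE core was found in 15 of them (50%), against 3.99% of 27025 genes with a promoter in the table. The GAS was found in 12 (40.0%), against 9.55% of all. Both motifs were found in 6 promoters, those of Bst2, Eif2ak2, Igtp, Irgm2, Oas1a and Tgtp1, and neither in 9, among them those of Irf7, Oasl2 and Xaf1. Such a match describes letters and not a bound site.

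The stretches that follow show what these letters look like in the 5 genes that were called between grafts and islets and hold an ISRE core before the start, with the core in capitals. Isg20 is added for its GAS, in capitals, because it was the single gene of the set called between P12.5 and NP in islets. The stretches run 5′ to 3′ along the strand of the gene, so a core on the other strand reads as TTTC and TTTC with 2 bases between them. They lie at chr19:34640760-34640838 on the plus strand for Ifit1, chr19:34583348-34583441 on the plus strand for Ifit3, chr10:128270251-128270310 on the plus strand for Stat2, chr11:48871421-48871475 on the minus strand for Irgm1, chr8:71537562-71537627 on the minus strand for Bst2 and chr7:78913326-78913384 on the plus strand for Isg20.
Ifit1: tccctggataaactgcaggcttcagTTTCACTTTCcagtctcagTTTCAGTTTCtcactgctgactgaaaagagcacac
Ifit3: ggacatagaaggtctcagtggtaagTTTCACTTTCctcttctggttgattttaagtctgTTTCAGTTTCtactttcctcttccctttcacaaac
Stat2: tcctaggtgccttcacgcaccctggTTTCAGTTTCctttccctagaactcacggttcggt
Irgm1: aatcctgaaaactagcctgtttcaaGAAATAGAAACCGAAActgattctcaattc
Bst2: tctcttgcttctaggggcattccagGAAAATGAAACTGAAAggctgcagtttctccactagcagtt
Isg20: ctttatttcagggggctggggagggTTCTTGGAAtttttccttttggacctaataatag

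Ifit1 and Ifit3 each carried 2 separate cores, Stat2 carried 1, and in Irgm1 and Bst2 a pair of cores overlapped and shared their middle repeat. The first core of Bst2 also overlapped a GAS. Among the printed stretches the cores of Irgm1 lay nearest to the start, from 30 to 15 bases before it. Of the 15 genes called in at least 1 comparison that had a promoter in the table, 7 held an ISRE core, as did 4 of the 9 measured genes called in none. The positions are drawn in the plot of motif matches.

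**Figure D1:**
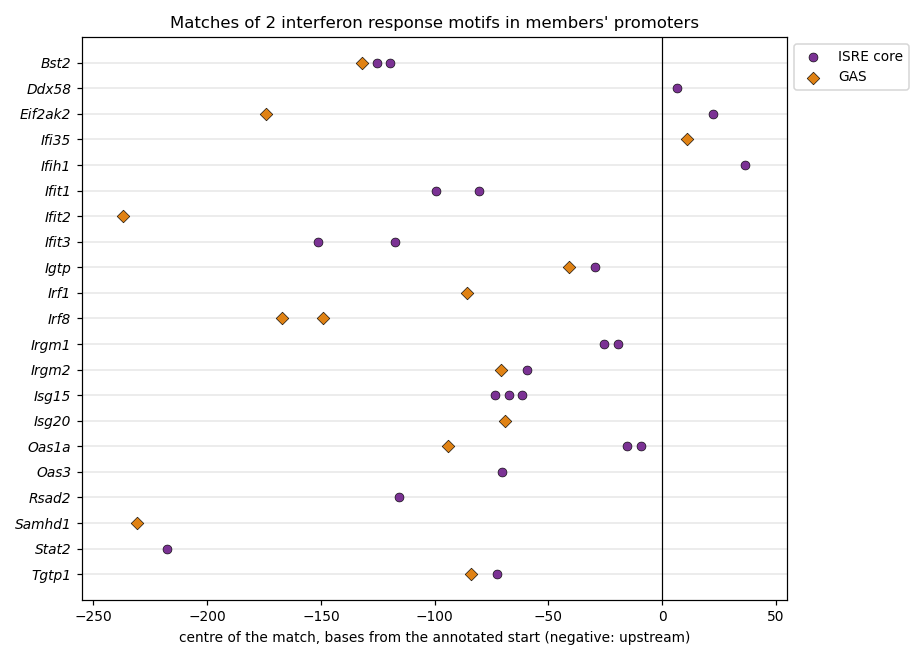
Position of each match of the ISRE core (circles) and of the GAS (diamonds) in the promoters of the 21 interferon-induced genes that held at least 1 of them. The horizontal axis gives the centre of the match in bases from the annotated start of the gene (vertical line), with negative values upstream, and each row is 1 gene. The rows of Isg15, Irgm1, Oas1a and Bst2 show cores that overlap each other.

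Female islet grafts had higher levels of most interferon-induced genes than non-transplanted islets, in the NP and in the P12.5 state. A gene was called when limma's adjusted p over all 35511 probe sets was under 0.05 and the change at least 1.5-fold. In the NP state 20 of the 35 measured genes were called higher in grafts, against 5.99% of all probe sets, and 0 were called lower (limma), against 5.02%, with 0 lower at an unadjusted p under 0.05, against 25.6%. In the P12.5 state 21 were called higher, against 2.83%, and 0 lower, against 1.22%, with 0 lower at an unadjusted p under 0.05, against 14.9%. All probe sets include many without a gene symbol. Among the 19938 genes read in the same way, 6.5% were called higher and 2.18% lower for NP. For P12.5 these shares were 4.03% and 0.622%. The median log2 difference of the 35 genes was 0.69 for NP and 0.67 for P12.5, where that of all probe sets was -0.075 and -0.067. Immunity-related GTPases, IFIT proteins, several transcription factors of the pathway and the antiviral effectors Rtp4, Ifi27l2a and Samhd1 were among them. Isg20, Ifi35, Cmpk2 and Trim25 had small negative differences in both states, none of them called. The groups did not overlap, with every graft array above every islet array, for 24 of the 35 genes in the NP state (11.6% of all probe sets) and for 22 in the P12.5 state (7.73%). Of the genes read in the same way 13.6% and 9.55% did so. Isg20 was the 1 gene with every female P12.5 graft below every P12.5 islet array (11.7% of all probe sets).

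Markers of immune and kidney cells differed between the same arrays. All 6 pan-leukocyte markers were called higher in female grafts in both states, and so were 12 of 12 macrophage markers in the NP state and 11 of 12 in the P12.5 state. The shares of all probe sets called higher were 5.99% for NP and 2.83% for P12.5. The mean of the pan-leukocyte markers was 5.57 to 5.73 in the 8 islet arrays and 6.95 to 8.17 in the 6 female grafts, and that of the macrophage markers 5.98 to 6.20 against 7.46 to 8.72. Of 9 T and NK cell markers 6 were called higher in the NP state and 4 in the P12.5 state (mean 4.97 to 5.19 in islets, 5.48 to 6.01 in female grafts). Of 11 kidney markers 8 and 4 were called higher (mean 5.23 to 5.36 against 5.80 to 8.65), and of 10 stromal markers 8 and 7 (6.49 to 7.01 against 8.33 to 9.68). B cell and granulocyte lists had 0 called in either state. Acinar markers were lower in grafts, with 7 of 8 called in both states, against 5.02% and 1.22% of all probe sets called lower. Endothelial markers had means of 7.77 to 8.02 in islets and 6.56 to 7.80 in female grafts. Beta cell markers, with 9 measured, had means of 10.91 to 11.27 in islets and 10.84 to 11.18 in female grafts, and 2 of them were called lower in the NP state. The part of these cell types in the differences of the interferon-induced genes was not tested. In such whole-tissue samples fewer cells of a type and less RNA per cell cannot be told apart.

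**Figure D2:**
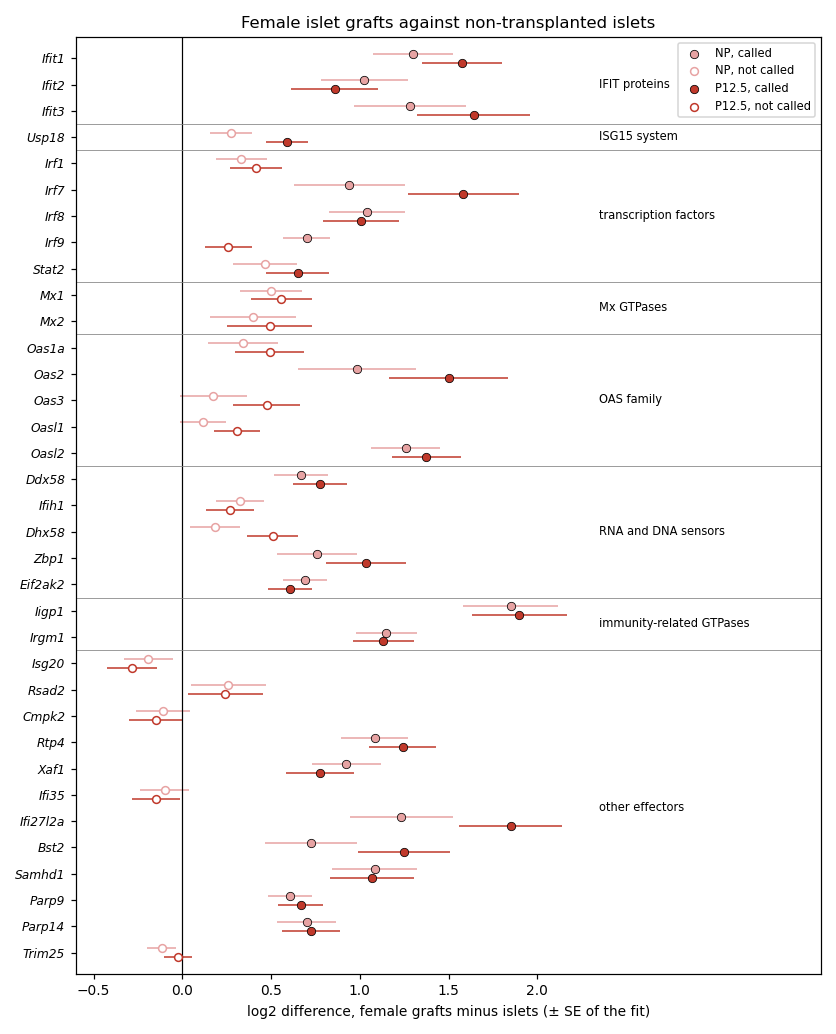
Log2 difference of the 35 measured interferon-induced genes between female islet grafts and non-transplanted islets, for NP (pale, 3 against 4 arrays) and P12.5 (dark, 3 against 4 arrays), with bars for the standard error of limma's fit. Filled points were called at an adjusted p under 0.05 and a change of at least 1.5-fold. The differences range from -0.28 for Isg20 to 1.90 for Iigp1, and horizontal lines separate the groups of genes by role.

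The IFIT proteins, which bind viral RNA that lacks the host's cap marks, were called higher in grafts as a whole group, 3 of 3 in both states. The 4 NP islet arrays gave 5.3, 5.2, 5.0 and 5.3 for Ifit1, and the 4 P12.5 islet arrays 5.1, 5.5, 5.1 and 5.6. Female grafts had 6.3, 6.4 and 6.8 for NP and 6.5, 6.8 and 7.4 for P12.5, and male grafts had 7.0, 6.2 and 6.3 for NP and 6.6, 6.5 and 7.1 for P12.5. All 12 grafts lay above all 8 islet arrays. The log2 difference was 1.30 ± 0.22 (adjusted p = 0.000617) in the NP state, a 2.46-fold change, and 1.58 ± 0.22 (adjusted p = 0.000334) in the P12.5 state, a 2.98-fold change. In NP islets Ifit3 was at 5.4, 5.3, 5.5 and 5.6, and in P12.5 islets at 5.3, 5.4, 5.5 and 5.9. Female grafts had 7.1, 6.7 and 6.4 for NP and 6.4, 7.1 and 8.0 for P12.5, and male grafts had 7.3, 6.1 and 6.6 for NP and 7.5, 6.9 and 7.8 for P12.5. Here too no graft was as low as an islet array, and the third female P12.5 graft stood at the top. Its differences were 1.28 ± 0.32 (adjusted p = 0.00696) and 1.64 ± 0.32 (adjusted p = 0.0046). Ifit2 read 4.7, 4.8, 4.7 and 4.9 in NP islets and 4.8, 4.7, 4.8 and 5.2 in P12.5 islets. The female NP grafts gave 6.2, 5.8 and 5.4 and the female P12.5 grafts 5.2, 5.6 and 6.4, the male NP grafts 6.2, 5.5 and 5.6 and the male P12.5 grafts 6.2, 5.7 and 6.2. The first female P12.5 graft was no higher than the highest P12.5 islet array. Ifit2 lay near the lower quartile of the arrays (4.7 to 4.9) in islets, so its differences, 1.03 ± 0.24 (adjusted p = 0.00554) and 0.86 ± 0.24 (adjusted p = 0.0426), are compressed and not exact sizes.

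Of the ISG15 system, in which the ubiquitin-like protein ISG15 is attached to others and USP18 takes it off again, Usp18 alone had a value. Islet levels of Usp18 were 6.7, 6.9, 6.5 and 6.8 for NP and 6.5, 6.6, 6.6 and 6.6 for P12.5. The female NP grafts gave 7.0, 7.0 and 7.0 and the female P12.5 grafts 7.0, 7.1 and 7.4, the male NP grafts 7.1, 7.3 and 7.0 and the male P12.5 grafts 7.2, 7.1 and 6.8. Every graft except the third male P12.5 graft was above every islet array, that graft being level with islet values. Usp18 was called in the P12.5 state (0.59 ± 0.12, adjusted p = 0.0054) and not in the NP state (0.28 ± 0.12, adjusted p = 0.0879). The test of the difference between these differences gave 0.32 ± 0.17 (adjusted p = 0.406), so the states were not shown to differ.

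Among the transcription factors 3 of 5 were called in each state. Irf7, the factor that amplifies interferon production, was the one with the widest range between grafts. The 4 NP islet arrays gave 6.0, 6.2, 6.3 and 6.4 for Irf7, and the 4 P12.5 islet arrays 6.2, 6.4, 6.3 and 6.9. In female grafts it was 7.6, 6.9 and 7.0 for NP and 7.4, 7.7 and 9.0 for P12.5, and in male grafts 7.6, 6.7 and 6.8 for NP and 7.8, 7.4 and 8.1 for P12.5. It was above the islets of the same state in every graft array, and female grafts differed by 0.94 ± 0.31 (adjusted p = 0.0327) in the NP state and by 1.58 ± 0.31 (adjusted p = 0.00523) in the P12.5 state. In NP islets Irf8 was at 6.1, 6.0, 6.2 and 6.2, and in P12.5 islets at 6.4, 6.0, 6.3 and 6.2. In female grafts it was 7.4, 7.3 and 6.8 for NP and 6.8, 7.2 and 7.7 for P12.5, and in male grafts 8.2, 7.2 and 7.5 for NP and 7.2, 7.0 and 7.2 for P12.5. Irf8, a factor of macrophages, dendritic cells and B cells, thus lay above all islet arrays in all 12 grafts, with differences of 1.04 ± 0.21 (adjusted p = 0.00212) and 1.01 ± 0.21 (adjusted p = 0.00855). Irf9, the DNA-binding part of the ISRE complex, was called in the NP state (0.70 ± 0.13, adjusted p = 0.0012) and not in the P12.5 state (0.26 ± 0.13, adjusted p = 0.254). The islet values of Irf9 were 7.0 to 7.2 at P12.5 and 6.6 to 6.8 in the NP state, and the difference between states was not called (-0.44 ± 0.19, adjusted p = 0.306). Stat2 read 7.3, 7.4, 7.3 and 7.2 in NP islets and 7.3, 7.3, 7.3 and 7.5 in P12.5 islets. Grafts of female donors showed 7.9, 7.5 and 7.9 for NP and 7.7, 7.8 and 8.5 for P12.5, and those of male donors 8.2, 7.8 and 7.6 for NP and 8.0, 7.9 and 8.4 for P12.5. Stat2, its partner in that complex, was called in the P12.5 state (0.65 ± 0.18, adjusted p = 0.0368) and not in the NP state (0.47 ± 0.18, adjusted p = 0.0593), although no female graft overlapped with the islets of its state. Irf1, a factor induced most strongly by interferon gamma, was called in neither state in female grafts, with differences of 0.33 ± 0.15 (adjusted p = 0.0945) and 0.42 ± 0.15 (adjusted p = 0.0929).

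The Mx GTPases, which trap the nucleocapsids of viruses, were called in neither state. Both lay at the low end of the arrays in islets, Mx1 at 4.2 to 4.6 and Mx2 at 4.3 to 4.8. Islet levels of Mx2 were 4.8, 4.7, 4.4 and 4.5 for NP and 4.4, 4.6, 4.6 and 4.3 for P12.5. Grafts of female donors showed 5.1, 5.2 and 4.7 for NP and 4.5, 4.7 and 5.7 for P12.5, and those of male donors 5.2, 4.5 and 4.4 for NP and 5.0, 4.9 and 5.4 for P12.5. Of the 12 grafts 5 were within the range of the islets for Mx2, and the third female P12.5 graft was again the highest. The differences of Mx2 were 0.40 ± 0.24 (adjusted p = 0.225) and 0.49 ± 0.24 (adjusted p = 0.23). Mx1 differed by 0.50 ± 0.17 (adjusted p = 0.0398), which passed the p threshold but not the fold minimum, and by 0.56 ± 0.17 (adjusted p = 0.0622). At this end of the scale changes are compressed, so larger differences in RNA could be hidden.

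The OAS family makes or resembles the makers of 2-5A, the messenger that turns on the RNA-degrading enzyme RNase L. Oas2 and Oasl2 were called in both states, and Oas1a, Oas3 and Oasl1 in neither. The 4 NP islet arrays gave 5.4, 5.4, 5.3 and 5.7 for Oas2, and the 4 P12.5 islet arrays 5.6, 5.5, 5.3 and 6.0. Female grafts had 6.1, 6.6 and 6.6 for NP and 6.5, 6.7 and 8.1 for P12.5, and male grafts had 6.7, 6.0 and 5.9 for NP and 6.9, 6.7 and 7.9 for P12.5. The female grafts lay above the islets of the same state, by 0.98 ± 0.33 (adjusted p = 0.0358) and 1.5 ± 0.33 (adjusted p = 0.0115), while the second and the third male NP grafts, at 6.0 and 5.9, fell inside the range of the P12.5 islets. In NP islets Oasl2 was at 6.6, 6.6, 6.7 and 6.4, and in P12.5 islets at 6.7, 6.8, 6.5 and 6.9. Female grafts had 7.9, 7.8 and 7.8 for NP and 7.9, 8.0 and 8.4 for P12.5, and male grafts had 8.0, 7.5 and 7.4 for NP and 8.0, 7.7 and 8.7 for P12.5. The grafts and islets did not overlap, and the differences were 1.26 ± 0.19 (adjusted p = 0.000252) and 1.38 ± 0.19 (adjusted p = 0.000282), 2.39-fold and 2.59-fold. The remaining 3 had differences from 0.12 (Oasl1, NP) to 0.49 (Oas1a, P12.5).

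The sensors of foreign RNA and DNA had 3 of 5 genes called in both states, Ddx58 (the RNA sensor RIG-I), Zbp1 (a sensor of Z-form nucleic acid that can start cell death) and Eif2ak2 (the kinase PKR, which stops translation on double-stranded RNA). Ddx58 read 7.0, 7.2, 7.2 and 7.0 in NP islets and 6.9, 6.9, 6.8 and 7.1 in P12.5 islets. The female NP grafts gave 7.8, 7.6 and 7.9 and the female P12.5 grafts 7.5, 7.6 and 8.0, the male NP grafts 7.9, 7.9 and 7.6 and the male P12.5 grafts 7.7, 7.5 and 8.2. Ddx58 thus separated grafts from islets without overlap, with differences of 0.67 ± 0.15 (adjusted p = 0.00417) and 0.78 ± 0.15 (adjusted p = 0.00504). Islet levels of Zbp1 were 5.5, 5.5, 5.5 and 5.8 for NP and 5.7, 5.7, 5.3 and 5.7 for P12.5. The female NP grafts gave 6.6, 6.3 and 6.1 and the female P12.5 grafts 6.1, 6.5 and 7.3, the male NP grafts 7.1, 6.6 and 6.3 and the male P12.5 grafts 6.7, 6.5 and 6.8. Its differences were 0.76 ± 0.23 (adjusted p = 0.0195) and 1.03 ± 0.23 (adjusted p = 0.0103). The kinase gene Eif2ak2 varied little among grafts (6.7 to 7.2, islets 6.1 to 6.6) and differed by 0.69 ± 0.12 (adjusted p = 0.000776) and 0.61 ± 0.12 (adjusted p = 0.00645). The RNA sensor Ifih1 (MDA5) was called in neither state, and Dhx58, the regulator LGP2, passed the p threshold in the P12.5 state without the fold minimum (0.51 ± 0.14, adjusted p = 0.04).

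The immunity-related GTPases, which attack the vacuoles of intracellular microbes and respond strongly to interferon gamma, were both called in both states, and Iigp1 had the largest difference of the 35 genes. The 4 NP islet arrays gave 4.7, 4.5, 4.8 and 5.0 for Iigp1, and the 4 P12.5 islet arrays 4.9, 4.9, 4.6 and 4.8. In female grafts it was 6.6, 6.5 and 6.7 for NP and 6.0, 6.8 and 7.3 for P12.5, and in male grafts 8.4, 7.8 and 7.2 for NP and 6.9, 6.6 and 7.3 for P12.5. The lowest graft, at 6.0, was far above the highest islet array, at 5.0. Iigp1 differed by 1.85 ± 0.27 (adjusted p = 0.000164) and 1.90 ± 0.27 (adjusted p = 0.000286), 3.61-fold and 3.73-fold, and since islets were at the low end of the arrays these folds are not exact sizes. In NP islets Irgm1 was at 6.6, 6.8, 6.6 and 6.2, and in P12.5 islets at 6.4, 6.6, 6.5 and 6.5. In female grafts it was 7.8, 7.5 and 7.8 for NP and 7.4, 7.5 and 8.0 for P12.5, and in male grafts 8.5, 8.3 and 7.8 for NP and 7.5, 7.5 and 7.8 for P12.5. Irgm1, a regulator of the other members and of autophagy, also had no overlap, with differences of 1.15 ± 0.17 (adjusted p = 0.000219) and 1.13 ± 0.17 (adjusted p = 0.00064). Of the 6 groups the male NP grafts had the highest mean of both genes.

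Of the other effectors 7 of 12 were called in both states: Rtp4, Xaf1, Ifi27l2a, Bst2, Samhd1, Parp9 and Parp14. Rtp4 read 6.3, 6.3, 6.2 and 6.2 in NP islets and 6.6, 6.7, 6.5 and 6.7 in P12.5 islets. Grafts of female donors showed 7.4, 7.3 and 7.3 for NP and 7.4, 7.8 and 8.4 for P12.5, and those of male donors 7.7, 7.0 and 7.1 for NP and 7.5, 7.6 and 8.0 for P12.5. Rtp4, a chaperone of membrane receptors, differed by 1.08 ± 0.19 (adjusted p = 0.000659) and 1.24 ± 0.19 (adjusted p = 0.00064). Islet levels of Xaf1 were 5.4, 5.6, 5.5 and 5.4 for NP and 5.7, 5.7, 5.5 and 5.6 for P12.5. Grafts of female donors showed 6.5, 6.4 and 6.3 for NP and 6.0, 6.2 and 7.0 for P12.5, and those of male donors 6.9, 6.4 and 6.2 for NP and 6.1, 6.4 and 6.6 for P12.5. Xaf1, which favours cell death, differed by 0.93 ± 0.19 (adjusted p = 0.00234) and 0.78 ± 0.19 (adjusted p = 0.0225). In both genes every graft lay above every islet array. The 4 NP islet arrays gave 4.9, 5.2, 5.3 and 5.0 for Ifi27l2a, and the 4 P12.5 islet arrays 5.2, 5.0, 5.1 and 5.3. Female grafts had 6.6, 6.5 and 5.9 for NP and 6.5, 6.5 and 8.0 for P12.5, and male grafts had 6.7, 6.2 and 6.2 for NP and 6.4, 6.6 and 7.2 for P12.5. All grafts were above all islet arrays, and the third female P12.5 graft, at 8.0, stood above the next graft, at 7.2. Ifi27l2a encodes a small protein, and its differences were 1.23 ± 0.29 (adjusted p = 0.00523) and 1.85 ± 0.29 (adjusted p = 0.00084).

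In NP islets Bst2 was at 6.5, 6.7, 6.8 and 6.7, and in P12.5 islets at 6.9, 6.5, 6.6 and 7.0. Female grafts had 7.8, 7.5 and 6.9 for NP and 7.5, 7.7 and 8.8 for P12.5, and male grafts had 7.7, 7.2 and 7.3 for NP and 7.7, 7.5 and 8.1 for P12.5. Bst2 encodes tetherin, which holds budding viruses on the cell surface, and the third female NP graft overlapped with the P12.5 islets. It differed by 0.73 ± 0.26 (adjusted p = 0.0459) and 1.25 ± 0.26 (adjusted p = 0.00757). Samhd1 read 7.3, 7.2, 7.1 and 7.0 in NP islets and 7.1, 7.1, 7.1 and 7.1 in P12.5 islets. The female NP grafts gave 8.2, 8.1 and 8.4 and the female P12.5 grafts 7.7, 8.0 and 8.8, the male NP grafts 9.3, 8.6 and 8.3 and the male P12.5 grafts 8.2, 7.8 and 8.6. Samhd1, the enzyme that removes the building blocks of DNA in non-dividing cells, had no overlap and differed by 1.08 ± 0.24 (adjusted p = 0.00322) and 1.07 ± 0.24 (adjusted p = 0.0115). The partners in ADP-ribosylation Parp9 (0.61 and 0.67) and Parp14 (0.70 and 0.73) were called with smaller differences. Isg20, an exonuclease of RNA, stood apart, with the lowest difference of the set in both states. It differed by -0.19 ± 0.14 (adjusted p = 0.314) and -0.28 ± 0.14 (adjusted p = 0.228), neither called. Rsad2 (viperin), Cmpk2, Ifi35 and the ubiquitin ligase Trim25 were not called either, with differences between -0.15 and 0.26.

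Of the 35 genes 19 were called in both states, Irf9 in the NP state alone and Usp18 and Stat2 in the P12.5 state alone. When the 2 differences were compared within 1 fit, 0 of the 35 genes were called (limma), against 0.0338% and 0.0169% of all probe sets called higher and lower. At an unadjusted p under 0.05 there were 0 higher and 1 lower, against 7.52% and 6.58%. The highest of these differences between states was that of Irf7 (0.64 ± 0.44, adjusted p = 0.542) and the lowest that of Irf9. The count of the P12.5 state depended most on 1 array. Without the third female P12.5 graft 9 of the 21 genes were called, namely Ifit1, Ifit3, Irf7, Oasl2, Ddx58, Iigp1, Irgm1, Rtp4 and Ifi27l2a, and these 9 held whichever array was left out. The other 12 genes kept positive differences but were not called. How many of all probe sets were called with an array left out was not counted. A general loss of calls therefore cannot be told from a loss among these genes. In the NP state 15 of the 20 held whichever array was left out, and Bst2, Irf7, Oas2, Parp9 and Zbp1 did not. With male in place of female grafts, a comparison chosen after the data had been seen and in which donor sex differs too, 19 of 35 genes were called higher in the NP state (5.94% of all probe sets) and 19 in the P12.5 state (4.7%), of which 18 and 19 were also called in female grafts. The gene called with male grafts alone was Irf1 in the NP state (limma, 1.03 ± 0.15, adjusted p = 9.89e-05). Irf7 and Oas2 in the NP state and Usp18 and Eif2ak2 in the P12.5 state were called with female grafts alone.

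**Figure D3:**
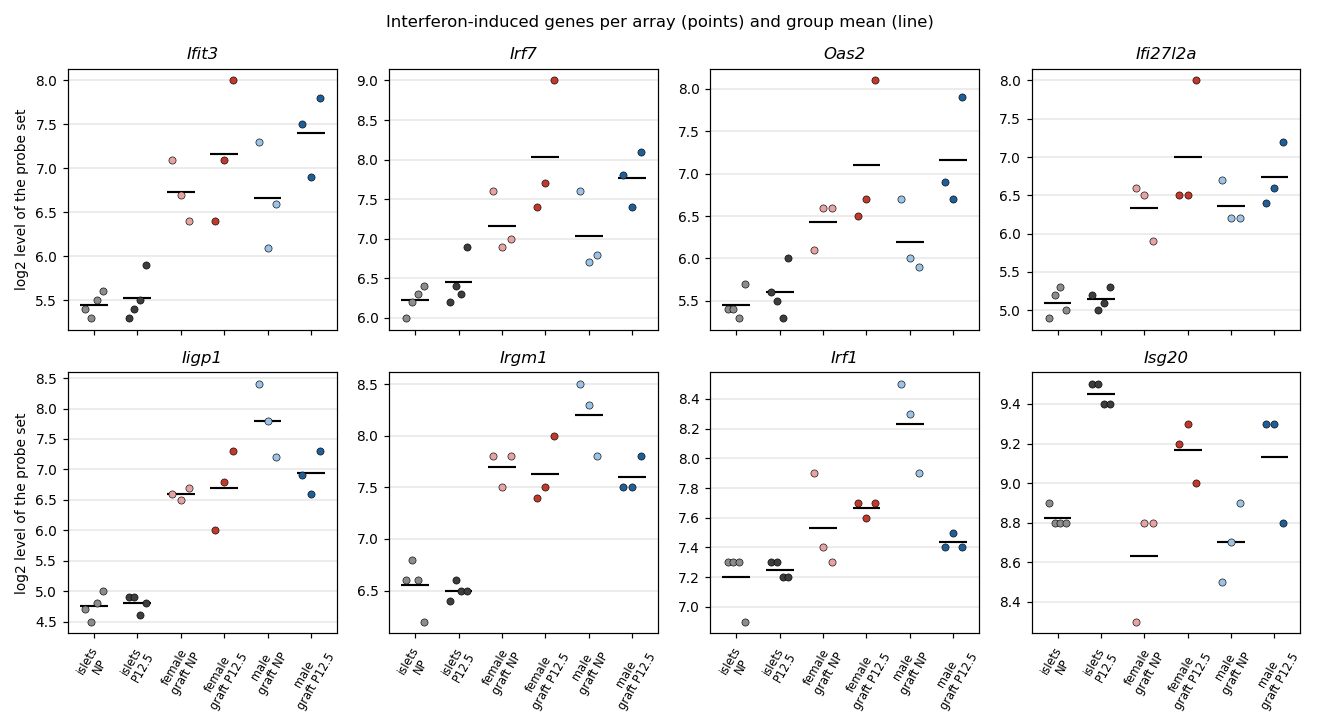
Log2 level of 8 interferon-induced genes in each of the 20 arrays (points) with the mean of each group (line), n = 4 for both islet groups and n = 3 for each graft group. Ifit3, Irf7, Oas2 and Ifi27l2a peak in the third female P12.5 graft (8.0, 9.0, 8.1 and 8.0), Iigp1, Irgm1 and Irf1 in the first male NP graft (8.4, 8.5 and 8.5), and Isg20 in the P12.5 islets (9.4 to 9.5). Each panel has its own vertical axis, which does not start at 0.

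Between P12.5 and NP 1 interferon-induced gene was called in islets and none in grafts. In non-transplanted islets 1 of 35 genes was called higher at P12.5, against 0.614% of all probe sets, and 0 were called lower (limma), against 0.11%. At an unadjusted p under 0.05 there was 1 lower, against 4.83%. The gene called was Isg20. Islet levels of Isg20 were 8.9, 8.8, 8.8 and 8.8 for NP and 9.5, 9.5, 9.4 and 9.4 for P12.5. The female NP grafts gave 8.3, 8.8 and 8.8 and the female P12.5 grafts 9.2, 9.3 and 9.0, the male NP grafts 8.5, 8.7 and 8.9 and the male P12.5 grafts 9.3, 9.3 and 8.8. All 4 P12.5 islet arrays were above all 4 NP islet arrays, by 0.63 ± 0.07 (adjusted p = 0.00215), a 1.54-fold change with a 95% confidence interval from 0.48 to 0.77 on the log2 scale. After renewed quantile normalization the difference was 0.56, under the fold minimum. The female P12.5 grafts were likewise all above the NP grafts (12% of all probe sets), by 0.53 ± 0.18 (adjusted p = 0.131), and 2 of the 3 male P12.5 grafts were above all male NP grafts (0.43 ± 0.18, adjusted p = 0.224), neither of them called. Over grafts of both donor sexes the difference of Isg20 was 0.48 ± 0.13 (limma, adjusted p = 0.0337). That passed the p threshold but not the fold minimum. Rtp4 (0.38 ± 0.07, adjusted p = 0.0441) and Irf9 (0.38 ± 0.08, adjusted p = 0.0532) did not overlap between the NP and P12.5 islets but stayed under the fold minimum, which made 3 such genes with Isg20 (3.83% of all probe sets). The lowest difference was that of Cmpk2, a mitochondrial nucleotide kinase (-0.23 ± 0.09, adjusted p = 0.338).

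In female grafts 0 of 35 genes were called between P12.5 and NP hosts (limma), against 0.836% and 0.859% of all probe sets called higher and lower. At an unadjusted p under 0.05 there were 3 higher and 0 lower, against 11.4% and 9.76%. The highest difference was that of Irf7 (0.87 ± 0.39, adjusted p = 0.23) and the lowest that of Cmpk2 (-0.27 ± 0.19, adjusted p = 0.461). In male grafts 0 were called as well (against 0.479% and 0.453%), and at an unadjusted p under 0.05 there were 2 higher and 4 lower (against 9.79% and 9.72%). The differences lay between 0.97 ± 0.42 (adjusted p = 0.236) for Oas2 and -0.87 ± 0.34 (adjusted p = 0.195) for Iigp1. With both donor sexes together 0 were called (against 1.97% and 2%), and at an unadjusted p under 0.05 there were 8 higher and 3 lower (against 16.3% and 14.6%). The differences lay between 0.82 ± 0.30 (adjusted p = 0.09) for Oas2 and -0.38 ± 0.24 (adjusted p = 0.301) for Iigp1. The 5 OAS family members all had positive differences in female grafts (0.27 to 0.67) and in male grafts (0.23 to 0.97), none called. Of all probe sets 50.4% and 49% had a difference above 0. The mean of the 5 genes was 6.48, 6.74 and 7.42 in female P12.5 grafts, against 6.5 to 6.54 in female NP grafts. The first female P12.5 graft was thus below every female NP graft, and the third was furthest above them. Male P12.5 grafts had 6.92, 6.6 and 7.22, against 6.28 to 6.64 in male NP grafts, so these groups overlapped as well. The median standard error of the 35 differences was 0.103 in islets and 0.233 in a graft comparison within 1 donor sex, so a difference had to be larger to be called in grafts than in islets.

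**Figure D4:**
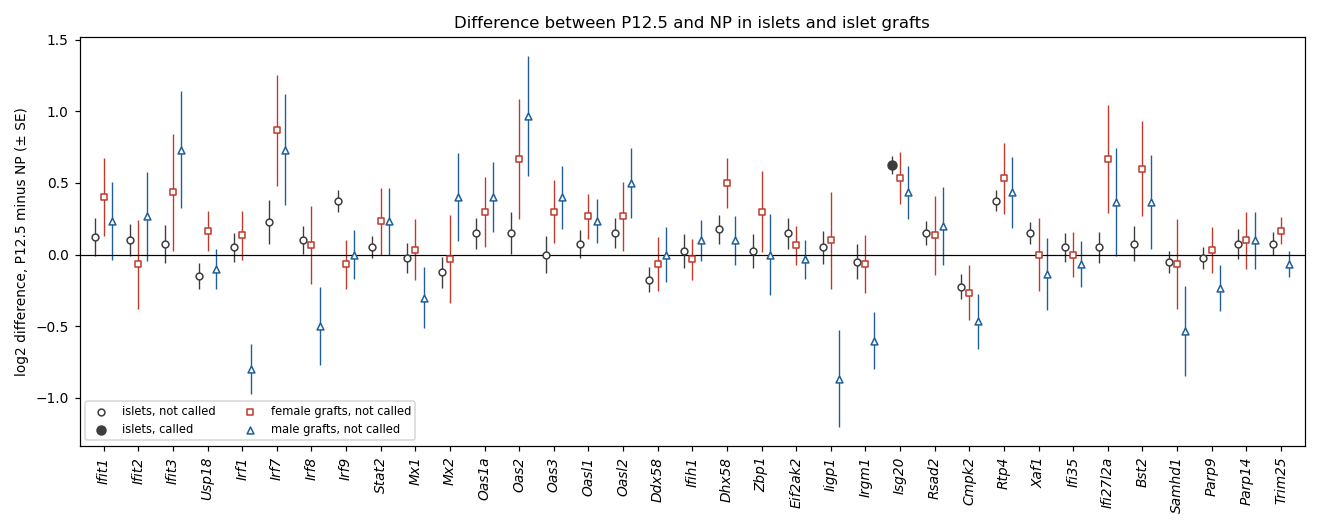
Log2 difference between P12.5 and NP for the 35 measured interferon-induced genes in non-transplanted islets (circles, 4 against 4 arrays), female grafts (squares, 3 against 3) and male grafts (triangles, 3 against 3), with bars for the standard error of limma's fit. The 1 filled point is Isg20 in islets at 0.63, and open points were not called. The error bars of the grafts are wider than those of the islets.

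Irf1 came closest to a call among the lower values of male grafts at P12.5. The 4 NP islet arrays gave 7.3, 7.3, 7.3 and 6.9 for Irf1, and the 4 P12.5 islet arrays 7.3, 7.3, 7.2 and 7.2. In female grafts it was 7.9, 7.4 and 7.3 for NP and 7.7, 7.6 and 7.7 for P12.5, and in male grafts 8.5, 8.3 and 7.9 for NP and 7.4, 7.5 and 7.4 for P12.5. The 3 male P12.5 grafts were below the 3 male NP grafts for Irf1 (9.38% of all probe sets), by -0.80 ± 0.17 (adjusted p = 0.0572), and its values in female grafts overlapped (0.13 ± 0.17, adjusted p = 0.712). Irf1 is described per array because of these values, not by the rule for named genes. It was called lower in male grafts with each array's median subtracted (-0.90, adjusted p = 0.0266), with the filter on low probe sets (adjusted p = 0.0408) and with all 20 arrays in the fit (adjusted p = 0.00771). Its second single-symbol probe set, with a mean of 5.59, gave 0.10 (adjusted p = 0.73), so the probe sets disagreed. The test of a difference between male and female responses called 0 of 35 genes (limma), with 0% of all probe sets called, and at an unadjusted p under 0.05 there were 0 higher and 1 lower, against 2.63% and 2.36%. The differences ran from -0.97 ± 0.48 for Iigp1 to 0.43 ± 0.43 for Mx2 (adjusted p = 0.955 and 0.977).

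The same male NP grafts had higher means of the lymphocyte markers than any other graft. The mean of the T and NK cell markers was 7.12, 6.87 and 6.10 in male NP grafts, above the other 9 grafts (5.48 to 6.01), and that of the B cell markers was 6.06 to 6.36 against 5.04 to 5.46. Of 9 T and NK cell markers 1 was called lower in male grafts at P12.5 and 8 were lower at an unadjusted p under 0.05, and of 5 B cell markers 2 and 5. The shares of all probe sets were 0.453% called lower and 9.72% lower at an unadjusted p under 0.05. The macrophage markers had 0 called, with means of 7.87 to 8.18 at NP and 7.74 to 8.63 at P12.5. Of the 9 T and NK cell markers 0 were called between male and female NP grafts (limma, 8 higher at an unadjusted p under 0.05). The part of these cells in the values of Irf1 and Iigp1 was not tested. Between male and female NP grafts 0 of the 35 interferon-induced genes were called (limma), against 0.0141% and 0% of all probe sets called higher and lower, and 3 were higher at an unadjusted p under 0.05, against 2.91%. The differences ran from -0.30 ± 0.31 for Mx2 to 1.20 ± 0.34 for Iigp1 (adjusted p = 0.977 and 0.774), and all 3 male NP grafts were above all 3 female NP grafts for Iigp1 (3.38% of all probe sets). Between the P12.5 grafts 0 were called either, against 0.0113% and 0%, and at an unadjusted p under 0.05 there were 0 higher and 0 lower, against 2.18% and 1.4%. The differences ran from -0.30 ± 0.21 for Mx1 to 0.33 ± 0.27 for Rsad2 (adjusted p = 0.977 for both).

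Grafts of 1 group differed more than islets of 1 group, and they did so across many of these genes at once. The mean of the 35 genes was 6.24, 6.29, 6.24 and 6.23 in NP islets and 6.30, 6.34, 6.27 and 6.40 in P12.5 islets. It was 6.99, 6.86 and 6.85 in female NP grafts, 6.79, 7.01 and 7.53 in female P12.5 grafts, 7.29, 6.92 and 6.87 in male NP grafts and 7.06, 6.91 and 7.33 in male P12.5 grafts. Every graft was thus above every islet array, and 1 graft stood out in each of 3 groups. The third female P12.5 graft held the highest value of all 20 arrays, ties counted, for 19 of the 35 genes. The first male NP graft and the third male P12.5 graft did so for 6 each. The third female P12.5 graft also had the highest macrophage mean (8.72) and pan-leukocyte mean (8.17) of its group, where the other 2 had 7.46 and 8.02, and 6.95 and 7.52. It was also the highest of its group for stromal (9.68), endothelial (7.80), T and NK cell (5.96) and dendritic cell markers (5.88), and the lowest for beta cell markers (10.84). In the third male P12.5 graft the macrophage mean was 8.63 and the stromal mean 10.15, the highest of its group. Its pan-leukocyte (7.77), endothelial (8.17) and dendritic cell means (5.76) were also the highest of its group. In contrast, its T and NK cell mean was the lowest of its group, as was its beta cell mean (10.53). The first male NP graft had the highest means of its group for pan-leukocyte (8.73), T and NK cell (7.12) and dendritic cell markers (6.28). The same held for its macrophage (8.18), stromal (9.46) and endothelial means (7.16). Its kidney (6.45) and beta cell means (10.87) were the lowest of its group. The part of these cell types in these array values was not tested.

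**Figure D5:**
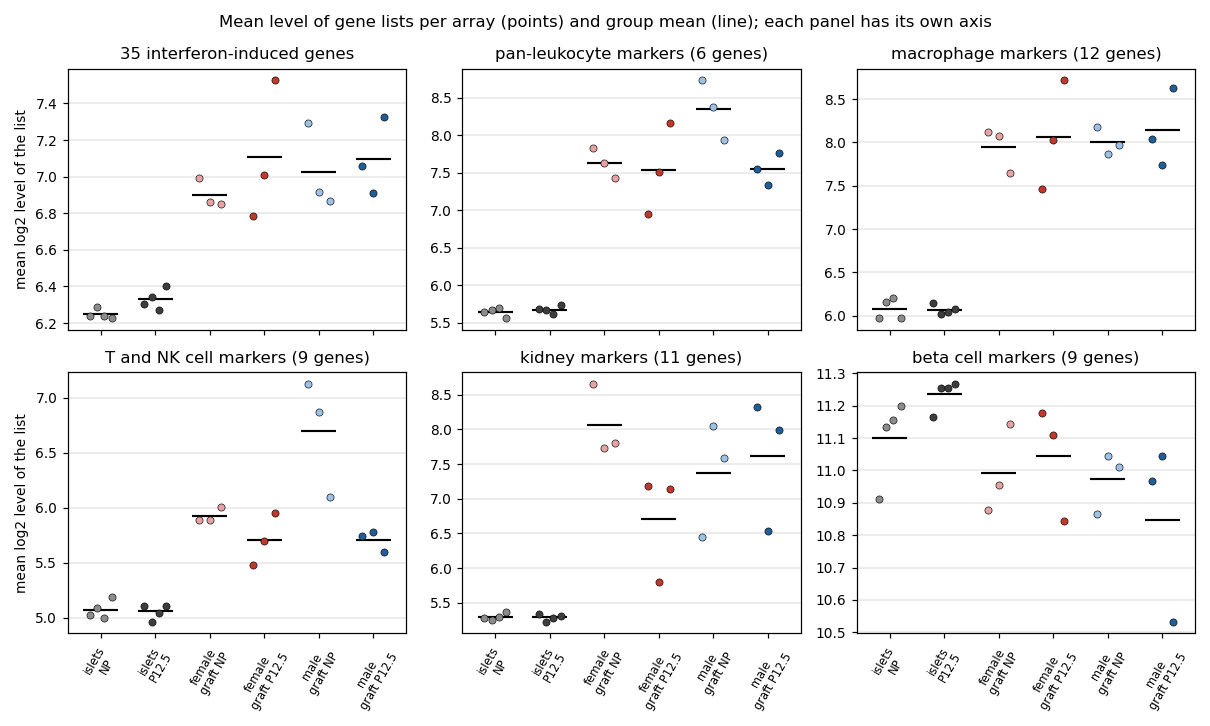
Mean log2 level per array (points) and per group (line) of the 35 measured interferon-induced genes and of 5 lists of cell type markers, n = 4 for both islet groups and n = 3 for each graft group. The interferon-induced genes lie between 6.23 and 6.40 in islets and between 6.79 and 7.53 in grafts. The pan-leukocyte, macrophage, T and NK cell and kidney markers are also higher in every graft than in every islet array, while the beta cell markers differ by less than 1. Each panel has its own vertical axis, which does not start at 0.

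The genes that make, receive and relay interferon were followed as 51 further genes with a value. Between female grafts and islets 9 were called higher and 2 lower in the NP state, against 5.99% and 5.02% of all probe sets. In the P12.5 state 6 were called higher and 0 lower (limma), against 2.83% and 1.22%. At an unadjusted p under 0.05 there were 4 lower in that state, against 14.9%. Of the 16 ligand genes 0 were called higher in either state. Ifng, the gene of interferon gamma, was at 4.8 to 5.5 in all 20 arrays and Ifnb1, the gene of interferon beta, at 4.4 to 5.1, both near the lower quartile of the arrays. Values of Ifng above 5.1 occurred in male NP grafts alone (4.8 to 5.5). The differences of Ifng were 0.07 ± 0.14 (adjusted p = 0.75) in the NP state and 0.03 ± 0.14 (adjusted p = 0.914) in the P12.5 state. Those of Ifnb1 were -0.42 ± 0.09 (adjusted p = 0.00356) and -0.33 ± 0.09 (adjusted p = 0.0427), under the fold minimum. The 2 called lower in the NP state were Ifna16 (-0.60) and Ifnz (-1.23), the latter with values from 6.4 to 8.3 among NP islets.

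Of the 6 receptor genes 3 were called higher in grafts in the NP state and 2 in the P12.5 state. Ifnar2 was called in both states, at 7.1 to 7.7 in islets and 8.1 to 8.9 in grafts (0.83 ± 0.15, adjusted p = 0.000657, and 0.92 ± 0.15, adjusted p = 0.000905). Ifnar1 differed by 0.56 ± 0.11 (adjusted p = 0.00153) and 0.34 ± 0.11 (adjusted p = 0.0697), not called. Ifngr1 was called in the NP state (0.68 ± 0.13, adjusted p = 0.00115), and Ifngr2 in neither (0.42 ± 0.12 and 0.44 ± 0.12). Il10rb, a chain of the interferon lambda receptor, was called in both (0.68 and 0.75). Among the sensors that start interferon production, Tmem173 (STING) had the widest difference, 1.67 ± 0.25 and 1.48 ± 0.25, and the toll-like receptors Tlr4 (1.43 and 0.98) and Tlr7 (1.13 and 1.23) were likewise called in both states, while Tlr3 was called in the NP state alone (0.63). Irf5, a factor of macrophages, was called in both (0.68 and 0.98), and Stat4, a factor of T and NK cells, in the NP state (1.21). Tlr4, Tlr7 and Stat4 were at 3.9 to 4.6 in islets, below the lower quartile, so their differences are not exact sizes. Socs1, the inhibitor that interferons induce in their own pathway, was called in no comparison (6.3 to 6.8 in all 20 arrays).

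In the comparisons of P12.5 with NP grafts 2 of these 51 genes were called, where all probe sets gave 0.836% called higher and 0.859% lower for female donors and 0.479% and 0.453% for male donors. Ifnl2, an interferon lambda gene, was higher at P12.5 in female grafts (8.5 to 8.9 against 8.0 to 8.2, 0.60 ± 0.13, adjusted p = 0.0428) and in male grafts (8.6 to 8.9 against 8.1 to 8.2, 0.63 ± 0.13, adjusted p = 0.0469). It was not called in islets, where the difference was -0.15 ± 0.11 (adjusted p = 0.679). Its near-identical copy Ifnl3 has no single-symbol probe set, so the 2 cannot be told apart here. Stat4 was lower at P12.5 in male grafts (4.8 to 5.0 against 5.9 to 6.8, -1.5 ± 0.21, adjusted p = 0.0124) and in grafts of both donor sexes together (-1.12 ± 0.15, adjusted p = 0.00238). In islets 0 of the 51 genes were called (limma), against 0.614% and 0.11%. At an unadjusted p under 0.05 there were 4 higher and 1 lower, against 7.02% and 4.83% of all probe sets.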

How the data were processed

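RNA of islets and islet grafts was hybridised to Affymetrix MoGene 1.0 ST arrays. The authors deposited 1 log2 level for each probe set and array, made with robust multichip analysis in aroma.affymetrix and given to 1 decimal. The genome build behind the array annotation is not given in the sources used here. Groups came from the sample titles. Of 35511 probe sets 21789 carried 1 gene symbol, 1621 several and 12101 none, and genes were named only from the first kind. Correlations between arrays of a group were 0.971 to 0.989. The number of arrays limits the precision.

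Models were fitted with limma 3.58.1 in R 4.3.3 on all probe sets. Islet groups were fitted on the 8 islet arrays, graft groups on the 12 graft arrays, and grafts against islets on all 20 arrays. The two-sided tests were corrected by Benjamini-Hochberg across all probe sets, and a gene was called at an adjusted p under 0.05 and a change of at least 1.5-fold, the thresholds of the study. Named were the called genes (the 12 with the largest change where more were called) and the highest and lowest gene of each comparison. Values per array were given for up to 15 called genes and for the gene with the highest mean of each of the 8 roles. The genes and lists were chosen with earlier results of these data known. The alternatives changed the normalization, the low-level filter, the arrays in the fit, the variance model, the thresholds, the probe set rule, the replicate block and the motif, and left out each array in turn. The procedure was tested on simulated data. Promoters came from RefSeq, build GRCm38.p6.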

Additional observations from a re-analysis of the deposited data

Results flagged for a closer look

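Each group of 4 islet arrays was examined for an array far from the other 3, in the levels of the 35 measured genes and in their mean. Of 72 such groups 10 had 1 array whose gap to the nearest other was the whole range of the group (gap over range of 1). In NP islets these were Irf1 (6.9 to 7.3), Ifih1 (6.7 to 7.2), Zbp1 (5.5 to 5.8), Isg20 (8.8 to 8.9) and Rsad2 (6.3 to 6.4). In P12.5 islets they were Usp18 (6.5 to 6.6), Stat2 (7.3 to 7.5), Oas1a (5.8 to 5.9), Zbp1 (5.3 to 5.7) and Cmpk2 (6.9 to 7.1). Chance flags about 1 in 20 groups, and the deposited values have 1 decimal, so that 3 of 4 arrays can tie. Groups of 3 grafts were not examined in this way.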

How the results depend on the processing

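No difference of a called gene reversed its sign under any alternative run. Of the values of called genes under alternatives 316 of 339 (NP grafts against islets), 319 of 356 (P12.5 grafts against islets) and 16 of 17 (islets, P12.5 against NP) kept their call. Leaving out 1 array at a time gave 16 to 19 genes called higher in NP grafts than in islets, 1 to 1 in islets at P12.5, and 9 to 24 in P12.5 grafts, with 9 without the third female P12.5 graft and 24 without the first. The shares of all probe sets called in these smaller fits were not counted. In islets 0 genes were called after renewed quantile normalization (Isg20 at 0.56) and 2 with no fold minimum (Isg20 and Rtp4). In male grafts 1 gene, Irf1, was called lower at P12.5 with array medians subtracted, with probe sets at or above the median only, with all 20 arrays in the fit and at an adjusted p under 0.1, and 0 to 1 with an array left out, 1 being without the third male NP graft. In grafts of both donor sexes 2 genes, Irf7 and Oas2, were called higher with all 20 arrays in the fit and at an adjusted p under 0.1, 1 with no fold minimum (Isg20), and 0 to 2 with an array left out (Rtp4 without the first female P12.5 graft, Irf7 and Rtp4 without the first male NP graft). The causes were not tested, beyond what each setting changes by construction. With 3 bases between the repeats of the ISRE core 4 promoters held it, against 15.

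Same-numbered arrays were taken to share only a number. The correlations of their deviations were -0.03 to 0.23 in islets, -0.24 to 0.07 in female grafts, -0.13 to 0.14 in male grafts, -0.15 to 0.03 between female and male NP grafts and 0.04 to 0.37 between female and male P12.5 grafts. Between islets and female grafts they were -0.10 to -0.01 for NP and -0.13 to -0.03 for P12.5. With the replicate number as a block 19 genes were called in NP grafts against islets, 17 in P12.5 grafts against islets, 1 in islets at P12.5 and 0 in the other comparisons. Ifit2, Mx1, Mx2 and Iigp1 had islet means at or under the highest lower quartile of the arrays, 4.9, where differences are compressed.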
